A study of Brassica napus with 112 samples.

Results

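The genes described here are the A09 and C09 copies of TRANSPARENT TESTA 8 (TT8) in rapeseed (Brassica napus), listed under the identifiers BnaA09g22810D and BnaC09g24870D. They were picked as a known regulator of seed coat pigment, by identifier and not by a threshold on any measured value, and are 2 of the 101040 genes in the deposited table. The name TT8 was taken as given with these identifiers. None of the 101040 identifiers matched the RefSeq table of the Da-Ae assembly, in which 1 gene carries the synonym TT8, so the names were not checked against sequence and no sequence is shown.

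TT8 is a basic helix-loop-helix transcription factor. In Arabidopsis it acts with the MYB protein TT2 and the WD-repeat protein TTG1 to switch on late flavonoid genes, among them those for dihydroflavonol reductase and anthocyanidin reductase, and the resulting proanthocyanidins oxidise to the brown pigment of the seed coat. Loss of TT8 function leaves the Arabidopsis seed coat unpigmented, and in rapeseed, an allotetraploid with an A and a C genome, yellow seeds have been obtained when both copies are disrupted.

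RNA-seq was made from seeds and siliques of the spring hybrids Lumen and Solar, grown in field plots in season 1 (2019) and season 2 (2020) and sampled 7 and 14 days after flowering (DAF). Control plots were left unmanipulated, and heat plots were warmed by 5 °C from the start of flowering in chambers of polyethylene film with thermo-fans. Each tissue had 56 libraries in 16 conditions of hybrid, treatment, sampling time and season, with 3 libraries per condition in season 1 and 4 in season 2, each from 5 plants per plot and 25 siliques per plant. Heat was assigned to main plots in season 1 and randomized with the hybrids within blocks in season 2. Heat and the film that covered the heated plots cannot be told apart, nor can hybrid and sampling date, because Solar was sampled on later dates than Lumen in both seasons. Each season is 1 year at 1 site.

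The deposited values are whole numbers on a scale close to TPM (transcript abundance normalised for length and depth), and they sum to between 890194 and 1658548 per library. The reads behind them are unknown from the table, so a value carries no counting error of its own and the spread between libraries served as the error. A step of 1 unit at the seed median equals 0.12 on the log2 scale for the A09 copy and 0.16 for the C09 copy. Of the seed libraries, 2 stood apart from the rest. The first was a season 2 library of heated Lumen at 7 DAF (replicate 4) with 66990 genes at 0, against a median of 47897 in seeds. The other was a season 1 library of control Solar at 14 DAF (replicate 1), in which the 10 most abundant genes took 33.5% of the total. The copies share much sequence, as homoeologues do, and their reads were assigned by pseudoalignment, so the split between them is uncertain where reads fit both.

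Both copies were detected in every seed library and were at or near 0 in siliques. In seeds the A09 copy had a lowest value of 4, a median of 11 and a highest of 18 (mean 11.2 ± 3.03 SD, n = 56), and the C09 copy a lowest of 4, a median of 8 and a highest of 16 (mean 8.30 ± 2.22 SD, n = 56). Their mean levels lay at the 68.2 and 59.9 percentiles of the 53350 genes tested in seeds, so neither was among the abundant transcripts. In siliques the A09 copy took only the values 0 and 1 and was at 0 in 35 of 56 libraries, and the C09 copy ranged from 0 to 2 and was at 0 in 26. No seed library of either copy overlapped a silique library of the same copy, but how many of all genes were separated in this way was not counted.

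The mean seed value was 29.8 times the mean silique value for the A09 copy and 15 times for the C09 copy. The silique means, 0.375 and 0.554, are made of whole numbers from 0 to 2, so both folds depend on rounding. The difference between the folds was not tested. On the scale of log2(value + 0.5), on which changes of low genes come out too small, seeds exceeded siliques by 3.19 for the C09 copy (SE 0.0963, limma with Benjamini-Hochberg adjustment, q = 1.81e-48). Of the 47925 genes tested in both tissues, 53.2% were called higher in seeds at the q-value threshold of 0.01 used throughout. The A09 copy was above 0 in too few silique libraries (37.5%) to pass the filter there, so its tissue difference was not tested, and its log2 difference of 3.88 is given as a description. BnaC05g18750D, which the study lists as INO1 and which was taken as a marker of the seed's outer integument after INNER NO OUTER of Arabidopsis, had the same split, with 16.8 ± 7.21 (SD, n = 56) in seeds and 0 in 41 of 56 silique libraries. Whether the cells that express INO are those that hold TT8 was not tested. The study discusses its silique samples as pod wall, a source tissue, apart from the seeds. In such bulk samples, fewer cells of a type and less RNA per cell cannot be told apart.

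**Figure D1:**
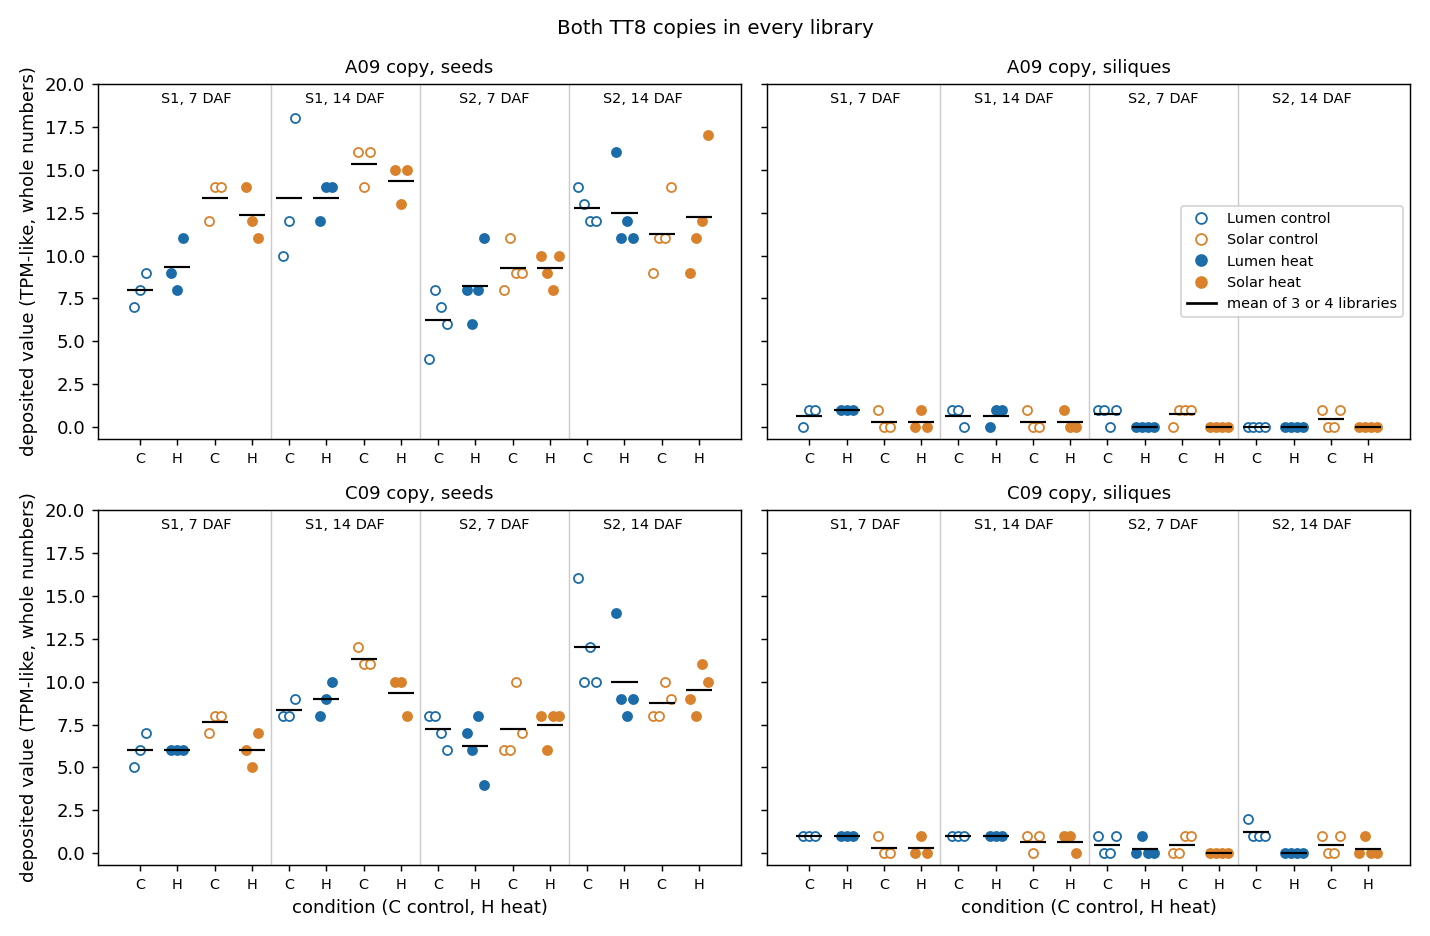
Deposited values (y axis, TPM-like whole numbers) of the A09 copy (top) and the C09 copy (bottom) in every seed (left) and silique (right) library, with the 16 conditions on the x axis grouped by season (S1, season 1; S2, season 2) and sampling time. Open points are control and filled points heat libraries, blue is Lumen and orange Solar, and bars are means; seed values run from 4 to 18 and silique values from 0 to 2.

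Seeds held more transcript of both copies at 14 DAF than at 7 DAF. The A09 copy had a lowest value of 4, a median of 9 and a highest of 14 in the 28 libraries at 7 DAF, and 9, 12.5 and 18 in the 28 at 14 DAF. The C09 copy had 4, 7 and 10 at 7 DAF and 8, 9.5 and 16 at 14 DAF. The ranges of the sampling times overlapped for both copies, with the overlap of the C09 copy limited to values of 8 to 10.

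The A09 copy rose from 9.32 ± 2.48 (SD, n = 28) to 13 ± 2.34 (SD, n = 28), a log2 difference of 0.47 (SE 0.0672, 95% interval 0.34 to 0.61, limma q = 1.04e-07). The C09 copy rose from 6.79 ± 1.26 to 9.82 ± 1.93 (SD, n = 28 each), a log2 difference of 0.51 (SE 0.0639, 95% interval 0.38 to 0.64, limma q = 7.53e-09). Time called 37% of the genes tested in seeds, and 20.7% of those tested were called higher at 14 DAF, so a rise like that of both copies was common. Without the 2 libraries that stood apart the differences were 0.49 and 0.48. The seed marker INO was at 18.8 ± 9.05 at 7 DAF and 14.9 ± 4.00 at 14 DAF (SD, n = 28 each), and its part in the result was not tested. In season 1 INO went from 13 ± 3.16 to 12.8 ± 2.14 in Lumen (SD, n = 6 each). In Solar it went from 9.83 ± 1.83 to 13 ± 2.61 (SD, n = 6 each). In season 2 it went from 25.4 ± 11.3 to 13.9 ± 2.80 in Lumen (SD, n = 8 each), where 1 library at 7 DAF was at 51. In Solar of season 2 it went from 23.4 ± 2.77 to 18.8 ± 4.56 (SD, n = 8 each).

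Ranked by mean, all 8 conditions at 7 DAF lay below all 8 at 14 DAF for the C09 copy, from 6 in 3 of the 7 DAF conditions to 12 ± 2.83 (SD, n = 4) in control Lumen at 14 DAF in season 2. Only the step from 7.67 ± 0.577 in control Solar at 7 DAF to 8.33 ± 0.577 in control Lumen at 14 DAF, both in season 1 (SD, n = 3), was larger than the larger SD of the 2 neighbours. The order of the A09 copy mixed the sampling times, since both season 1 Solar conditions at 7 DAF ranked among those at 14 DAF. It ran from 6.25 ± 1.71 (SD, n = 4) in control Lumen at 7 DAF in season 2 to 15.3 ± 1.15 (SD, n = 3) in control Solar at 14 DAF in season 1. Neighbours differed by more than their larger SD in 1 of 15 steps for each copy, and for the A09 copy this was the step from 6.25 ± 1.71 to 8 ± 1 (SD, n = 3) in control Lumen at 7 DAF in season 1.

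The rise was measured again in each hybrid and season. In Lumen the A09 copy rose by 0.58 on the log2 scale in season 1 (SE 0.144, limma q = 0.00292) and by 0.80 in season 2 (SE 0.124, limma q = 2.05e-06). The C09 copy of Lumen rose by 0.50 (SE 0.137, limma q = 0.00815) and 0.66 (SE 0.118, limma q = 2.28e-05). These contrasts called 9.53% of all genes in season 1 and 22.8% in season 2. In Solar the only rise past the threshold was that of the C09 copy in season 1, by 0.57 (SE 0.137, limma q = 0.00165), where 13.4% of genes were called. The other Solar differences were 0.20 for the A09 copy in season 1 (limma q = 0.365), and in season 2, where 16.2% of genes were called, 0.31 for the A09 copy (limma q = 0.0640) and 0.30 for the C09 copy (limma q = 0.0576). The difference between the hybrids in the rise of the A09 copy was 0.43 (SE 0.134, limma q = 0.0608) and that of the C09 copy 0.14 (SE 0.128, limma q = 0.616), so neither copy was shown to rise more in Lumen than in Solar. This interaction called 1.11% of genes.

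Averaged over both sampling times, Solar seeds held more of the A09 copy than Lumen seeds. The means at 7 DAF were 7.86 ± 1.88 in Lumen and 10.8 ± 2.15 in Solar (SD, n = 14 each). At 14 DAF the means were close, 12.9 ± 2.13 in Lumen and 13.1 ± 2.62 in Solar (SD, n = 14 each). At 7 DAF the A09 copy had a lowest value of 4, a median of 8 and a highest of 11 in the 14 Lumen libraries, and 8, 10.5 and 14 in the 14 Solar libraries. At 14 DAF it had 10, 12 and 18 in Lumen and 9, 13.5 and 17 in Solar. The hybrids overlapped in both samplings, in part at 7 DAF and nearly throughout at 14 DAF.

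Averaged over the other factors, Lumen was lower than Solar for the A09 copy, with a log2 difference of −0.24 (SE 0.0672, 95% interval −0.38 to −0.11, limma q = 0.00258). Genotype called 36.9% of the genes tested in seeds, and 20% of those tested were called lower in Lumen. In season 1 alone the difference was −0.36 and past the threshold (limma q = 0.00149). In season 2 alone it was −0.13 and not past it (limma q = 0.345). The call was also lost without replicate 1 of season 1 (−0.19, limma q = 0.0556) and without replicate 2 of season 1 (−0.24, limma q = 0.0179), each of which removed 8 seed libraries. The hybrid difference was not shown to differ between the seasons, as the interaction of genotype and season was 0.23 (SE 0.134, limma q = 0.290), a term that called 5.82% of genes. The interaction of genotype and time was larger, 0.43 (SE 0.134), but also missed the threshold (limma q = 0.0608), in a term that called 1.11% of genes.

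By sampling, the A09 copy in season 1 at 7 DAF was at 7, 8 and 9 in control Lumen and at 9, 8 and 11 in heated Lumen. The Solar libraries of that sampling were at 12, 14 and 14 in the control and at 14, 12 and 11 in heat. Only the value of 11 occurred in both hybrids, and the log2 difference was −0.55 (SE 0.144, limma q = 0.00270), in a contrast that called 20.4% of genes. The difference at 7 DAF in season 2 was −0.37 (SE 0.124, limma q = 0.0193), and those at 14 DAF were −0.17 in season 1 (limma q = 0.418) and 0.12 in season 2 (limma q = 0.556), where 21.5%, 20.6% and 19.8% of genes were called. Without the library with 66990 genes at 0 and the other that stood apart, the 7 DAF difference of season 2 was −0.44 and past the threshold (limma q = 0.00499).

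For the C09 copy the hybrids were not separated. Lumen seeds had a lowest value of 4, a median of 8 and a highest of 16, and Solar seeds 5, 8 and 12 (n = 28 each). The log2 difference was −0.074 (SE 0.0639, 95% interval −0.20 to 0.055, limma q = 0.368), and its sign turned in season 2 alone, to 0.052. None of the 4 samplings gave a C09 difference past the threshold, with values from −0.24 to 0.23.

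**Figure D2:**
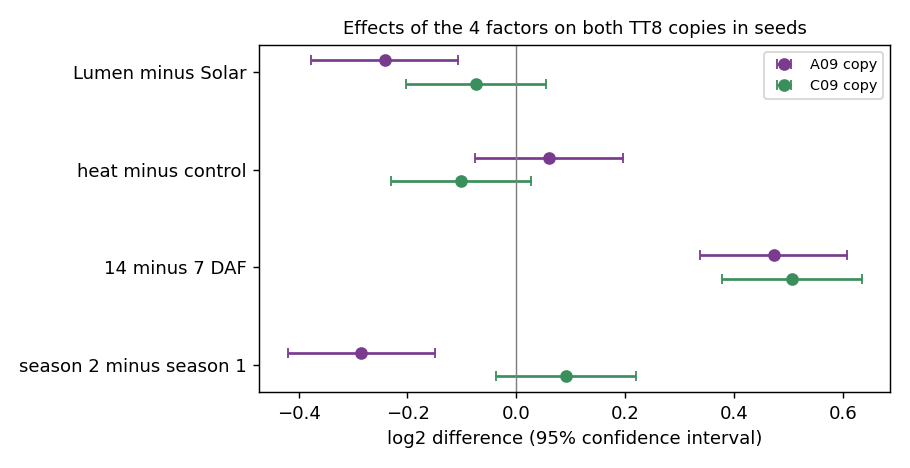
Log2 differences (x axis) of both copies in seeds for the 4 factors (y axis), from limma over 56 libraries. Points are estimates (purple, A09 copy, and green, C09 copy) and bars 95% confidence intervals; both copies lie near 0.5 for time, only the A09 copy lies clear of 0 for hybrid (−0.24) and season (−0.28), and the intervals for heat include 0.

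The A09 copy was lower in seeds of season 2 than of season 1, and the C09 copy showed no such difference past the threshold. The A09 copy had a lowest value of 7, a median of 12.5 and a highest of 18 in the 24 seed libraries of season 1, and 4, 10.5 and 17 in the 32 of season 2. The C09 copy had 5, 8 and 12 in season 1 and 4, 8 and 16 in season 2. The seasons overlapped widely for both.

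The A09 copy fell from 12.4 ± 2.86 (SD, n = 24) to 10.2 ± 2.84 (SD, n = 32), a log2 difference of −0.28 (SE 0.0672, 95% interval −0.42 to −0.15, limma q = 0.000724). Season called 27.3% of the genes tested in seeds, and 15.1% of those tested were called lower in season 2. Without replicate 3 of season 1 the difference was −0.22 and no longer past the threshold (limma q = 0.0237). The difference of the C09 copy was 0.091 (SE 0.0639, 95% interval −0.038 to 0.22, limma q = 0.269). INO was at 12.2 ± 2.70 in season 1 and 20.3 ± 7.57 in season 2 (SD, n = 24 and 32), and its part in the result was not tested. By hybrid and time, the A09 difference was −0.45 in Solar at 7 DAF (limma q = 0.0142) and −0.35 in Solar at 14 DAF (limma q = 0.108). In Lumen it was −0.28 at 7 DAF (limma q = 0.162) and −0.063 at 14 DAF (limma q = 0.785). In the same order, these contrasts called 10.1%, 3.65%, 6.15% and 14.3% of genes.

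Heat had no detectable effect on either copy in seeds. Control seeds had a lowest A09 value of 4, a median of 11 and a highest of 18, and heated seeds 6, 11 and 17 (n = 28 each). For the C09 copy these were 5, 8 and 16 in control and 4, 8 and 14 in heat. The treatments overlapped over almost their whole range.

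The log2 difference of heat minus control was 0.060 for the A09 copy (SE 0.0672, 95% interval −0.075 to 0.20, limma q = 0.711) and −0.10 for the C09 copy (SE 0.0639, 95% interval −0.23 to 0.028, limma q = 0.440). Heat called 1.64% of genes in seeds. Within a hybrid and sampling time the largest of the 8 heat differences was 0.29, for the A09 copy of Lumen at 7 DAF (SE 0.134, limma q = 0.305). These contrasts called 0.0412% of genes in Lumen at 14 DAF, 0.127% in Lumen at 7 DAF, 0.186% in Solar at 14 DAF and 0.0319% in Solar at 7 DAF. None of the interactions among the 4 factors passed the threshold for either copy in seeds. The C09 interaction of genotype, heat and season was −0.69 (SE 0.256, limma q = 0.647). Over all genes the terms of heat and time called 0.114%, of time and season 0.0431% and of genotype, time and season 0.208%, and the 6 terms not named with a percentage called 0%.

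Within a seed library the A09 copy was usually the higher of the pair. It exceeded the C09 copy in 45 of 56 libraries, equalled it in 8 and was lower in the rest. Its share of the summed value was lowest at 33.3%, 57.1% at the median and highest at 73.3% (mean 57.1 ± 6.65% SD, n = 56), and the sum itself ran from 12 to 30. Both extremes were Lumen libraries at 7 DAF in season 2. The lowest share was that of control replicate 1, with an A09 value of 4 and a C09 value of 8. The highest was that of heated replicate 4, with 11 and 4, which is the library with 66990 genes at 0.

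The ratio of the copies was taken within a library, which largely removes the scaling of the library, though not the effects of rounding, of the pseudocount, of length or of read assignment. The mean log2((A09 + 0.5)/(C09 + 0.5)) was 0.40 (SD 0.378, n = 56) and differed from 0 (sign-flip permutation test, two-sided, p = 1e-05, the smallest that 100000 resamples can give). It was 0.61 in season 1 and 0.24 in season 2, a difference of −0.38 (stratified permutation test, two-sided, p = 1e-05, also the smallest possible, adjusted p = 8e-05 over the 8 tests of 4 factors in 2 tissues). The A09 copy was higher in 24 of 24 seed libraries of season 1, with shares of 55.6% to 70.6%, and in 21 of 32 of season 2. The differences for hybrid (−0.17, permutation p = 0.0518, adjusted p = 0.104), heat (0.17, permutation p = 0.0469, adjusted p = 0.104) and time (−0.018, adjusted permutation p = 0.835) did not pass the threshold.

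**Figure D3:**
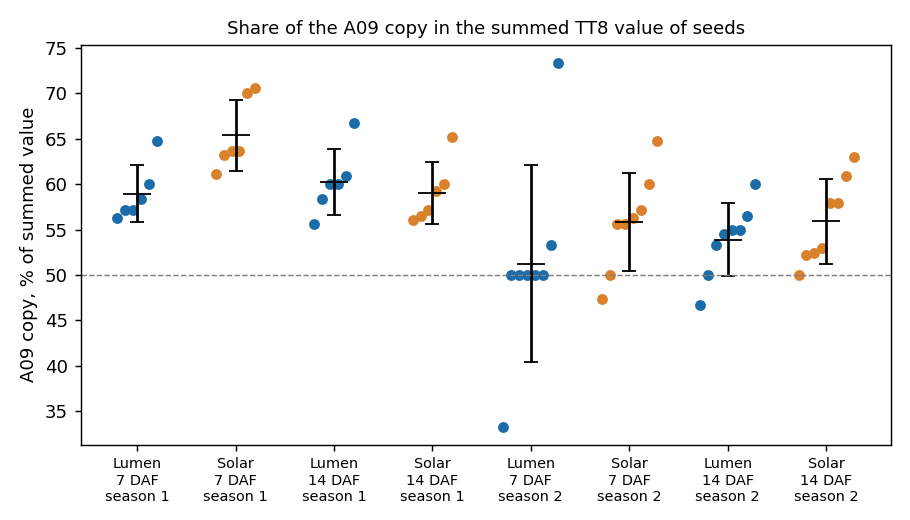
Share of the A09 copy in the summed value of both copies (y axis, %) in each seed library, by hybrid, sampling time and season (x axis). Blue points are Lumen and orange Solar libraries, black marks are mean ± SD and the dashed line marks 50%; every season 1 library lies above the line, between 55.6% and 70.6%, while season 2 runs from 33.3% to 73.3%.

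Over the 56 seed libraries the log2 values of the copies correlated with a Pearson r of 0.51 and a Spearman rho of 0.60, given as a description, since the points share library, depth and scaling. Without the 2 libraries farthest from the A09 median r was 0.55. At 7 DAF alone r was −0.057 (rho 0.013, n = 28) and at 14 DAF alone 0.45 (rho 0.50, n = 28), and the difference between these was not tested. After removal of the condition means r was 0.14 over all seed libraries, −0.16 at 7 DAF and 0.49 at 14 DAF. Without the 2 libraries farthest from the A09 median, r was 0.10 at 7 DAF and 0.53 at 14 DAF, so the sign at 7 DAF rested on those libraries. Among 29488 genes with a mean seed value of at least 5, the C09 copy ranked 1940 by its correlation with the A09 copy, and the A09 copy ranked 2884 for the C09 copy, so many genes followed each copy more closely than its homoeologue did. The 2 genes most like both copies over the 56 seed libraries were BnaA08g28680D, with an r of 0.79 to the A09 and 0.75 to the C09 copy, and BnaA02g30470D, with 0.81 and 0.70. Their mean values went from 27.3 at 7 DAF to 41.4 at 14 DAF and from 42.2 to 74.9.

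**Figure D4:**
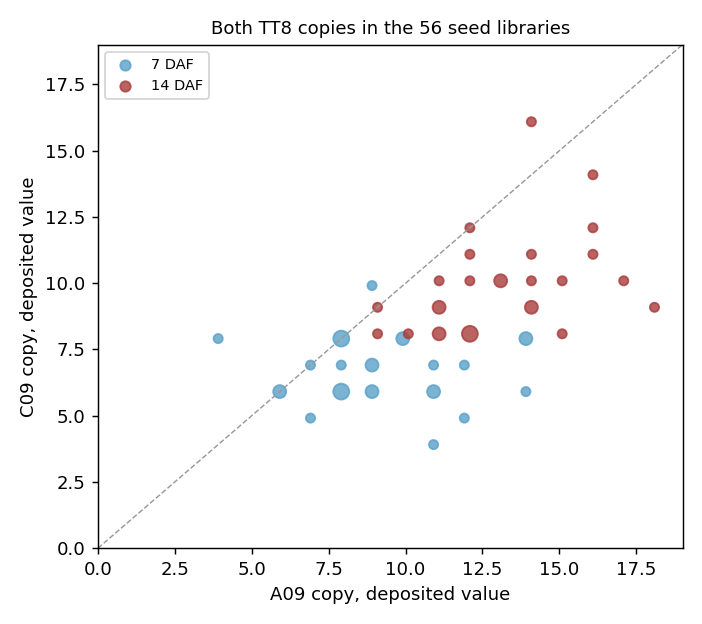
Value of the C09 copy (y axis) against the A09 copy (x axis) in the 56 seed libraries, on the deposited scale, with larger points where several libraries coincide and the sampling times drawn slightly apart. Blue points are 7 DAF and red points 14 DAF, and the dashed line marks equal values; the 14 DAF libraries lie mostly above and to the right, and r within a sampling time was −0.057 at 7 DAF and 0.45 at 14 DAF.

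The genes around each copy were counted for the hybrid difference by the order of identifiers, 10 on each side. Around the A09 copy, 10 of 20 were tested in seeds, and 2 of them were past the threshold with Lumen higher and 4 with Solar higher, with a median log2 difference of −0.35 over the tested genes. Around the C09 copy, 9 of 20 were tested, and past the threshold Lumen was higher for 1 and Solar for 2, with a median of −0.025 over the tested genes. The median over all seed genes was −0.036, and 36.9% of them were called for genotype. In siliques the medians were −0.18 around the A09 copy (11 tested) and −0.0063 around the C09 copy (8 tested), against −0.0077 over all genes. Counts this small are a description only.

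In siliques the values of both copies were too low for more than a count of libraries above 0. The C09 copy was above 0 in 19 of 28 Lumen and 11 of 28 Solar libraries, and in 18 of 24 libraries of season 1 and 12 of 32 of season 2. All 12 Lumen libraries of season 1 held it at 1. Its log2 differences were 0.52 for genotype (SE 0.184, limma q = 0.0183), −0.42 for heat (limma q = 0.154), 0.25 for time (limma q = 0.268) and −0.57 for season (limma q = 0.0182). None passed the threshold, where genotype called 36.8%, heat 5.09%, time 34.3% and season 15.2% of silique genes.

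The A09 copy was above 0 in 12 of 28 Lumen and 9 of 28 Solar silique libraries, and in 13 of 28 at 7 DAF and 8 of 28 at 14 DAF. In a fit without the filter its differences were 0.23 for genotype, −0.33 for heat, −0.26 for time and −0.46 for season, with limma q-values of 0.338, 0.317, 0.272 and 0.0616. In season 2 it was above 0 in 8 of 16 control and 0 of 16 heated libraries, and in season 1 in 6 of 12 control and 7 of 12 heated libraries. The C09 copy was above 0 in 10 of 16 control and 2 of 16 heated libraries of season 2, and in 9 of 12 of both treatments in season 1. Of the season 2 libraries at 7 DAF, heated Lumen replicates 1 and 3 had 50132 and 50803 genes at 0, against a silique median of 46495. Control Solar replicate 1 of that sampling had 49997. Both copies were at 0 in each of these libraries. INO, the integument marker, was above 0 in 4 of 16 control and 1 of 16 heated libraries in season 2, and in 4 of 12 and 6 of 12 in season 1. The share of INO in these counts was not tested, and the C09 interaction of heat and season in siliques, −0.84 (SE 0.368), did not pass the threshold (limma q = 0.656) and called 0.0237% of genes.

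**Figure D5:**
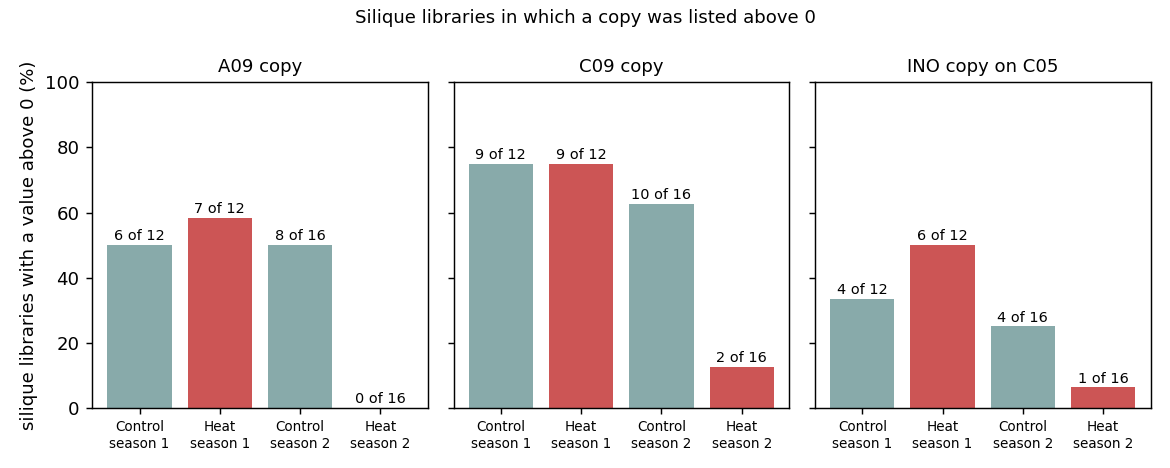
Percent of silique libraries with a value above 0 (y axis) for both TT8 copies and INO, by treatment and season (x axis), with the number of libraries over each bar. Grey bars are control and red bars heat; heated season 2 libraries had the A09 copy in 0 of 16 and the C09 copy in 2 of 16.

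Whether the effects differed between the tissues is given for the C09 copy alone. The same fit held the A09 copy, but its terms are not used, since it passed the filter only in seeds. The C09 terms (seeds minus siliques, limma over the 60177 genes that passed in either tissue) were 0.25 for time (q = 0.352), −0.59 for genotype (q = 0.0204), 0.32 for heat (q = 0.439) and 0.66 for season (q = 0.0142). None of these C09 terms passed the threshold, where the terms called 22.2%, 11.7%, 1.79% and 5.56% of genes. Within silique libraries the mean log2 ratio of the copies was −0.27 (SD 0.757, sign-flip permutation p = 0.0187), which also missed the threshold, and 1 unit decides most of these values.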

How the data were processed

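Seeds and siliques of each plot were sequenced as stranded total RNA. Per the labels and the study's methods, the authors quantified transcripts of the annotated rapeseed genome by pseudoalignment (kallisto 0.46) and tested genes with sleuth. The deposited table holds a whole-number score per gene and library, a normalized abundance close to TPM whose scaling and rounding are not given in the sources used here. It is not a read count. The study reports read depth separately, and that depth was not used here. Samples were grouped by tissue, hybrid, treatment, DAF and season from the labels.

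Here values were transformed to log2(value + 0.5), and genes that reached 1 in 47% or more of a tissue's libraries were fitted in limma 3.58.1 (R 4.3.3, with the package data.table of version 1.17.8) with genotype, heat, time and season and all interactions in sum-to-zero coding, so a main effect is a mean over the other factors. Moderated tests with a variance trend were adjusted by Benjamini-Hochberg over all genes tested, at q under 0.01. The fits were run on simulated data with planted heat differences larger than any found for either copy in seeds, so smaller differences were not covered. Effects are Lumen minus Solar, heat minus control, 14 minus 7 DAF, season 2 minus season 1 and seeds minus siliques. Copy ratios were tested by permutation within the combinations of the other factors (100000 resamples, two-sided, Python 3.11.15, numpy 2.4.6, pandas 2.3.3, statsmodels 0.14.6; figures by matplotlib 3.10.9).

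Named genes were the members, the 2 genes with the highest mean Pearson correlation with both copies, and INO as marker. No measured threshold set the members, but members, lists and tests were chosen with earlier results of these data known. A list of flavonoid pathway genes by name was not used here, because no identifier was paired with a name. Per the study's methods, each replicate came from its own field plot, with 4 per condition in season 2, although the layout of that season is described with 3 replicates. Replicate numbers were not treated as pairs. Alternatives were another pseudocount, no filter, a minimum mean of 20, median-ratio rescaling, no interactions, a replicate block, each season alone, the omission of the 2 libraries that stood apart and of each replicate number. The A09 tissue difference, not tested, and the A09 silique effects come from fits with filters chosen after the data were seen.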

Additional observations from a re-analysis of the deposited data

Results flagged for a closer look

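Gap tests on single libraries were run in 44 groups of 4 libraries for both copies, their ratio and INO, and 11 groups held a library far from the other 3. Chance flags about 1 in 20 groups, and whole numbers near 0 with ties raise that share. In seeds these were a C09 value of 14 in heated Lumen at 14 DAF, a C09 value of 6 as the lowest in heated Solar at 7 DAF, and a log2 ratio of −0.92 in control Lumen at 7 DAF, all in season 2. The seed library of heated Lumen at 7 DAF in season 2 with 66990 genes at 0 had both the highest INO value, 51, and the highest log2 ratio, 1.35. In siliques of season 2 a single library differed by 1 unit from the other 3 in 6 groups. These were a C09 value of 2 in control Lumen at 14 DAF, an A09 value of 0 in control Lumen at 7 DAF and in control Solar at 7 DAF, a C09 value of 1 in heated Lumen at 7 DAF and in heated Solar at 14 DAF, and an INO value of 1 in heated Solar at 7 DAF.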

How the results depend on the processing

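Of the main effects, the C09 tissue difference and the ratios under all alternatives, 286 kept their direction and side of the threshold, 4 lost the call, 1 gained it and 7 changed sign. In season 2 alone the hybrid difference of the A09 copy in seeds was −0.13 (limma q = 0.345) and that of the C09 copy 0.052. With 1 replicate number left out at a time, the A09 hybrid difference ranged from −0.30 to −0.19 and its season difference from −0.33 to −0.22. The time difference in the seed ratio, −0.018, became 0.011 with a pseudocount of 5, 0.017 without the 2 libraries that stood apart and 0.073 in season 2 alone, and ranged over −0.060 to 0.024 with 1 replicate number left out. The heat difference in the silique ratio ranged over −0.035 to 0.29, and the mean silique ratio over −0.28 to −0.25. All of these ratio values are near 0 or rest on silique values of 0 to 2. The cause of these changes was not tested. Deviations of libraries of a tissue with the same season and replicate number had a median correlation of 0.00341 in seeds (from −0.253 to 0.371). In siliques the median was 0.0159 (from −0.3 to 0.231). These pairs mix hybrids, treatments and times, so a median near 0 cannot show whether libraries of 1 plot deviate together. Seed and silique libraries of 1 condition and number deviated together weakly (median 0.117, from −0.0403 to 0.351). With those seed and silique libraries as a replicate block, the C09 tissue difference was 3.19 (limma q = 1.68e-31). With the replicate number as a block within season, the seed time differences were 0.47 (limma q = 1.25e-07) for the A09 and 0.51 (limma q = 3.83e-09) for the C09 copy and the A09 hybrid difference −0.24 (limma q = 0.00231). No call was changed by the block, and the season effect could not be given under it, because the block lies within season. This block is not the plot, so neither plots sampled at both times nor the main plots of heat in season 1 were modelled. Among single contrasts, the Lumen rise of the C09 copy in season 1 was 0.31 with a pseudocount of 5 (limma q = 0.0102), and without the 2 libraries apart the A09 season difference in Solar at 7 DAF was −0.45 (limma q = 0.00810).

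Genes called over the whole table moved by more than 1.5 times in 26 cases, and the range over all settings was 33 to 1266 for heat in seeds (875 as reported), 4679 to 21941 for genotype (19670), 5639 to 22531 for time (19766) and 4744 to 16755 for season (14559). In siliques it was 70 to 2953 for heat (2788), 4493 to 21436 for genotype (20163), 4984 to 19472 for time (18771) and 2620 to 8926 for season (8345). A mean value of at least 20 removes both copies, so it gave no value for them, and season 2 alone gave none for the C09 copy in siliques, which fell under the filter. No silique library had both copies at 5 or more. Whole-number values limit both copies most in siliques, where 1 unit is the whole signal.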
